A study of Mus musculus with 12 samples.

Results

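The ubiquitin-specific peptidases (Usp) and the E2 ubiquitin-conjugating enzymes (Ube2) were taken from a list of poly(A) sites (PASs) mapped by 3′READS+, which sequences the 3′ ends of transcripts. Members were all genes whose symbol in the list begins with Usp and a digit, or with Ube2. The rule found 81 of the 16627 listed genes, 48 Usp and 33 Ube2, with 343 of the 56204 entries. An entry is a PAS under a gene, and each of the 343 is a different site. The list gives the chromosome, strand, position and region label of every PAS, in coordinates of mm9, the build named in the submitters' processing notes.

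The list was made from 12 libraries of hippocampal mini-slices, with the dentate gyrus removed, of C57BL/6 mice that the sample labels give as 3 months old. Slices had chemical LTP (cLTP), induced with 50 μM forskolin for 5 minutes and then for 5 minutes with forskolin, 30 mM KCl and 10 mM Ca2+, or 10 minutes of ACSF with 0.2% DMSO as the control. Slices were frozen at 1 hr or 3 hr. Each of the 4 groups has 3 replicates, and slices of 1 animal served for both treatments. The chemical stimulus reaches the whole slice and not a single set of synapses. The 12 columns of read counts bear names that match no sample label, so no column was assigned to a group and none was used. What follows is therefore the arrangement of PASs in these genes. No level, no difference between LTP and control slices and no spread between replicates is given. The tissue was not checked against marker genes, since no read counts were used. Each listed PAS counts as 1 whatever its number of reads, and the list does not show in which library a site was seen. The paper, with limits on the read number and relative abundance of a PAS, reports fewer PASs in fewer genes. It also places a smaller share of its PASs in introns. The shares below are those of the whole list, with no such limit.

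Ubiquitin is activated by an E1 enzyme, passed to the active-site cysteine of an E2 and joined to its substrate with the help of an E3 ligase. The E2 largely sets which kind of chain is built, and some E2s carry related modifiers such as NEDD8 instead. Ubiquitin-specific peptidases are the largest class of deubiquitinases and remove or trim these chains. Ubiquitination and its reversal control protein turnover at synapses. A PAS in the last exon fixes the length of the 3′UTR. A PAS in an intron ends the transcript early and can change the encoded protein.

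Cleavage is directed in part by a hexamer, most often AATAAA or its variant ATTAAA, a short way upstream of the PAS. Since no genome of mm9 was used here, the hexamer was looked for in the annotated 3′ ends of GENCODE M21 (build GRCm38), matched by gene symbol and not by position. The sense strand of the last 40 bases of 1 protein-coding transcript a gene was searched. AATAAA was present in 55 of the 81 members (67.9%), ATTAAA without it in 14 (17.3%), and neither in 12 (14.8%). In 15851 other listed genes the shares were 62.5%, 14.4% and 23.1%. The Ube2 genes had AATAAA in 26 of 33 (78.8%) and the Usp genes in 29 of 48 (60.4%). An annotated end need not be one of the listed PASs. The last 30 bases of the transcript are printed for some of the members with the most listed PASs and for *Usp9x*, which lacks an exon3 PAS, 5′ to 3′, with AATAAA, or ATTAAA where AATAAA is lacking, in capitals. *Ube2d3* is shown as a Ube2 gene with ATTAAA and *Usp47* as a gene with neither hexamer.
Ube2v1: tactatAATAAAaaagtatgctttgataca
Ube2q2: gtttatgAATAAAgaaccatttaaaaatca
Ube2d3: tgttaccATTAAAgtctgtgtttaaacaca
Usp53: tctttttaaAATAAAcatcaatactattta
Usp9x: atatacaaaAATAAAactttataaattaaa
Usp49: agtttcttattaaaagAATAAAatacctgt
Usp8: tctacATTAAAatcttaatgaagaaaaaaa
Usp47: agtataattaacatttctgtcttaaaagtc

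The hexamer began 24 bases before the annotated end in *Ube2v1*, 23 in *Ube2q2* and *Ube2d3*, 21 in *Usp53* and *Usp9x*, and 25 in *Usp8*. In *Usp49* it began 14 bases before the end.

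The members carried a median of 3 listed PASs, against 2 in the 16546 other genes. The largest number was 17, in *Ube2q2* and *Ube2v1*. A single PAS was listed for 18 members, and 63 (77.8%) had 2 or more, against 67.0% of the other genes. The share was 83.3% for the Usp genes (40 of 48) and 69.7% for the Ube2 genes (23 of 33). Genes are not replicates of a condition, so these shares are given as descriptions with no test. Of the 343 entries, 200 were labelled exon3, taken as the 3′-most exon, and 8 exon3ext, downstream of it. Intronic labels were given to 103, of which 93 were intron_Comp, a composite terminal exon, and 10 intron_Skip, a skipped terminal exon. A further 27 were labelled UA, 4 exonI, an internal exon, and 1 exon53. The meaning of the labels was taken from their names. No member had a site labelled exon5 or exon53ext.

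**Figure D1:**
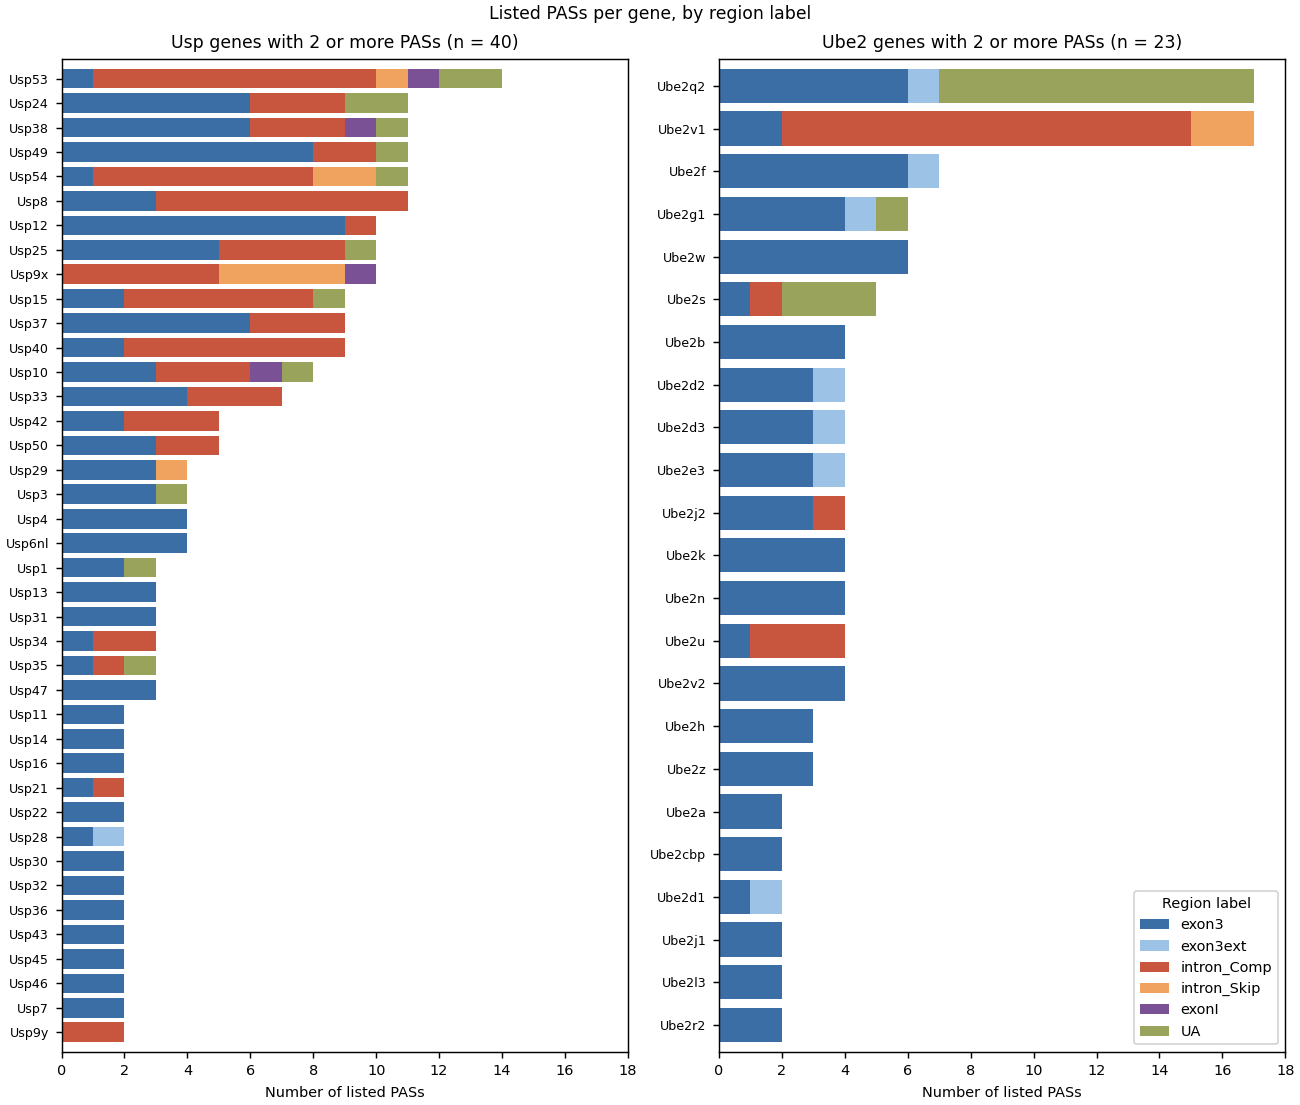
Number of listed PASs (x axis) in each of the 40 Usp genes (left) and 23 Ube2 genes (right) with 2 or more, with bars divided by region label. *Ube2q2* and *Ube2v1* reach 17 through different labels, UA and intron_Comp, and intronic labels are spread over 21 Usp genes but 4 Ube2 genes.

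The Usp and Ube2 genes differed in their intronic and exon3ext PASs. An exon3ext site was listed for 1 of 48 Usp genes (2.08%) and 7 of 33 Ube2 genes (21.2%), with 12.3% of the other genes between them. At least 1 intronic PAS was listed for 21 of 48 Usp genes (43.8%) but for 4 of 33 Ube2 genes (12.1%), with 33.5% of the other genes between them. Among intronic and exon3 entries, 41.1% were intronic in the Usp genes (83 of 202), 19.8% in the Ube2 genes (20 of 101) and 32.7% in the other genes. *Ube2v1* alone held 15 of the 20 intronic PASs of its family. Without it the Ube2 share was 5.95%. Over all members the share was 34.0%, near that of the other genes, so the joint value hides the gap between the families.

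The families also differed in gene length. The median length in the annotation was 58.2 kb for the Usp genes, 37.1 kb for the Ube2 genes and 23.9 kb for the other genes. Within a class of length the share of Usp genes with an intronic PAS lay close to that of the other genes. The number of intronic PASs per length differed in both directions, and genes within a class were not matched for length. An intronic PAS was listed for 1 of 6 Usp genes under 20 kb (16.7%, against 18.3% of the others), 8 of 19 between 20 and 60 kb (42.1%, against 38.8%) and 12 of 23 of 60 kb and over (52.2%, against 53.6%). Per 100 kb of gene, the Usp genes had 1.53 intronic PASs in the first class, 4.39 in the next and 2.03 in the last, and the other genes 3.43, 2.53 and 1.07. Over all lengths the values were 2.57 in the Usp, 1.24 in the Ube2 and 1.497 in the other genes. Of the 33 intronic PASs in Usp genes between 20 and 60 kb, *Usp53* held 10 and *Usp8* 8. The number per length without these genes was not computed. In the class of 60 kb and over, 49 intronic PASs were listed in 23 Usp genes and 7613 in 3880 other genes. That class has no upper limit, and its median length was 92.2 kb for the Usp genes and 114.3 kb for the others. The Ube2 genes had the lower share in the upper classes, with 1 of 16 between 20 and 60 kb (6.25%) and 1 of 7 from 60 kb (14.3%), while 2 of 10 under 20 kb had such a site. They also had fewer exons, a median of 6 and 7 in those upper classes, where the other genes had 10 and 15. The Usp genes had more, a median of 14 and 22. The part of exon number in the differences of either family from the other genes was not tested. Across genes, Spearman's rho between length and number of intronic PASs was 0.26 in the 48 Usp genes, -0.08 in the 33 Ube2 genes and 0.36 in the 15851 others, as a description.

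**Figure D2:**
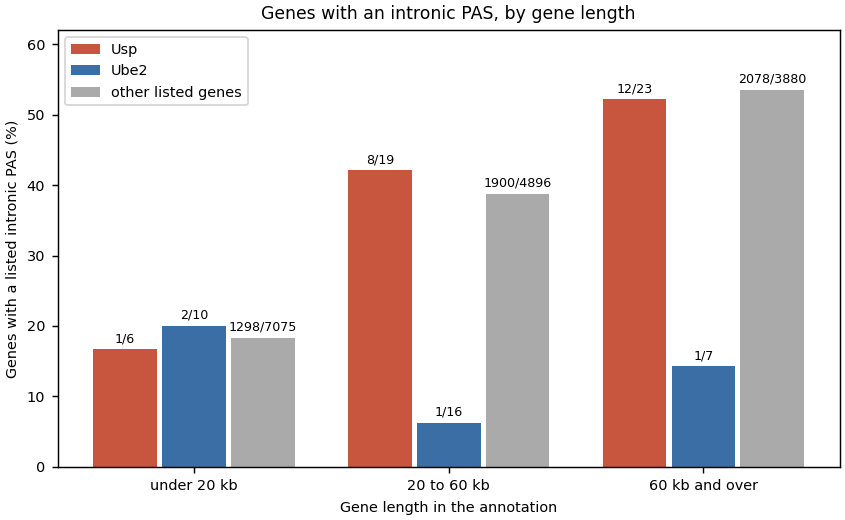
Share of genes with at least 1 listed intronic PAS (y axis, %) by gene length in GENCODE M21 (x axis), for the Usp genes (red), the Ube2 genes (blue) and the other listed genes (grey), with the number of genes with such a site and of all genes above each bar. The Usp bars stand within a few percentage points of the grey ones in all 3 classes, and the Ube2 bars stand below them from 20 kb.

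*Usp53*, which encodes a protein of cell junctions, had the most PASs of the Usp genes, 14, on the minus strand of chromosome 3. Its 10 intronic sites began with an intron_Skip site at position 122685012, 48512 nt upstream of the only exon3 PAS, at 122636500. The nearest of them, at 122637565, was 1065 nt upstream of that PAS. An exonI site lay at 122671877, and both UA sites preceded all the others. *Usp54* had 9 intronic sites, 7 intron_Comp and 2 intron_Skip, between 69333 and 7134 nt upstream of its single exon3 PAS at 21368134 on chromosome 14. In both genes the sites were scattered: merging sites 500 nt or less apart left 11 of 14 in *Usp53* and 10 of 11 in *Usp54*.

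*Usp8*, an endosomal deubiquitinase that acts on internalised receptors, had 8 intron_Comp sites on chromosome 2, from 50693 to 715 nt upstream of the first of 3 exon3 PASs. These 3 lay at 126584839, 126584967 and 126585033, within 194 nt. *Usp40* held 7 intronic sites, from 41814 to 1919 nt upstream of its exon3 PASs. *Usp15*, a deubiquitinase of the TGF-β pathway, held 6, from 82539 to 6526 nt upstream. *Usp25* had 4, the farthest 101410 nt upstream.

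*Usp9x*, the large X-linked deubiquitinase, had 10 listed PASs and none of them was labelled exon3. Its intron_Skip sites lay at 12649390, 12651135, 12651481 and 12667841 on the plus strand. An intron_Comp site at 12700277 and an exonI site at 12733499 followed. The last 4, all intron_Comp, stood at 12736137, 12742856, 12743253 and 12743973. The first and last sites were 94583 nt apart, in a gene of 101.8 kb in the annotation, whose 3′UTR there is 3844 nt. *Usp9y*, its counterpart on the Y chromosome, was listed with 2 intron_Comp sites 59579 nt apart and no exon3 site. *Usp27x*, the third member without one, has a single PAS labelled exon53, at 6949717 on the X chromosome.

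Smaller intronic sets were listed for the other Usp genes. There were 3 intron_Comp sites each in *Usp10*, *Usp24*, *Usp33*, *Usp37*, *Usp38* and *Usp42*. The shortest distance from any intronic PAS of a member to its first exon3 PAS was 360 nt, in *Usp38*. *Usp10* and *Usp38* each had an exonI site as well. *Usp34*, *Usp49* and *Usp50* had 2 intronic sites and *Usp12*, *Usp21*, *Usp29* and *Usp35* had 1. That of *Usp29*, an imprinted gene beside *Peg3*, was of the intron_Skip kind and lay 194432 nt upstream of the first exon3 PAS, the longest distance among the members.

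*Ube2v1*, an E2 variant without the active-site cysteine that partners Ube2n in building non-degradative chains, was the exception in its family. It lies on the minus strand of chromosome 2, and its 17 PASs comprised 2 intron_Skip, 13 intron_Comp and 2 exon3 sites. The intron_Comp sites fell into a pair of dense runs, 5 sites within 418 nt from 167443250 to 167442832 and 8 sites within 412 nt from 167440532 to 167440120. With sites 500 nt or less apart merged, the 17 became 5. The exon3 PASs were at 167433324 and 167433142. *Tmem189*, the upstream neighbour, ended 14186 nt before the first *Ube2v1* site, and none of the *Ube2v1* sites was listed under a second gene. The other Ube2 genes with intronic PASs were *Ube2u*, with 3, the nearest 53630 nt upstream of its exon3 PAS, *Ube2j2*, with 1 at 9646 nt, and *Ube2s*, an E2 of the anaphase-promoting complex, with 1 at 1013 nt.

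For the 92 intronic PASs in members with an exon3 PAS, the median distance upstream of the first exon3 PAS was 20192 nt, against 20424 nt for the other genes. Within 5000 nt lay 12 of the 92 (13.0%, against 18.8%), and 33 were over 30000 nt away (35.9%, against 40.1%). The Usp median was 22795 nt over 72 sites and the Ube2 median 9577 nt over 20, most of them in *Ube2v1*.

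**Figure D3:**
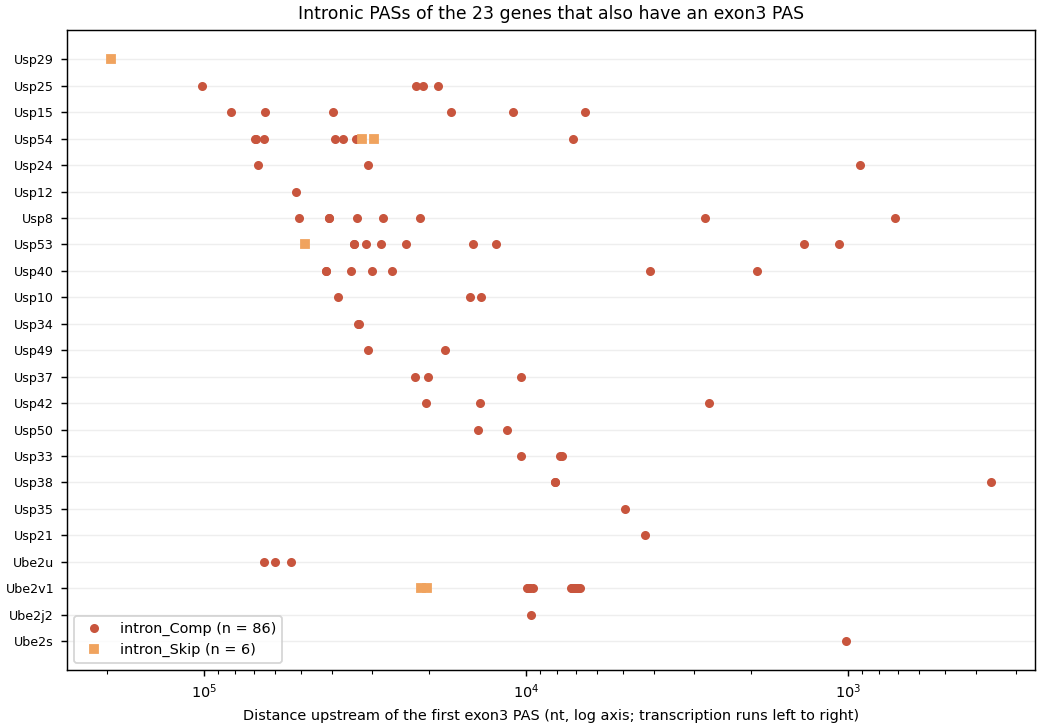
Distance of each of 92 intronic PASs upstream of the first exon3 PAS of its gene (x axis, nt, logarithmic), 1 row a gene, with intron_Comp sites as circles and intron_Skip sites as squares. The sites of *Usp8*, *Usp53* and *Usp54* are spread along the gene, and the intron_Comp sites of *Ube2v1* stand in a pair of dense runs.

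With each listed site counted as 1, alternative 3′UTR PASs were more common in both families than in the other genes. Of the 78 members with an exon3 PAS, 52 (66.7%) had 2 or more, against 49.4% of the other genes. The share was 32 of 45 in the Usp genes (71.1%) and 20 of 33 in the Ube2 genes (60.6%). The 122 neighbouring pairs lay a median of 255.5 nt apart (25th percentile 113 nt, 75th percentile 675 nt), against 259 nt in the other genes. The outermost exon3 PASs of a member were a median of 891.5 nt apart, against 816 nt. The family with fewer such genes had the wider median span between outermost PASs: 1253 nt in 20 Ube2 genes against 475.5 nt in 32 Usp genes. Between neighbouring exon3 PASs the medians were closer, 320.5 nt in the Ube2 and 219.5 nt in the Usp genes. Annotated 3′UTRs were of similar length, with a median of 1463 nt in the Ube2 and 1508.5 nt in the Usp genes, and 996 nt in the others. Spearman's rho between annotated 3′UTR length and number of exon3 PASs was 0.64 over the 33 Ube2 genes, 0.33 over the 48 Usp genes and 0.38 over the others. The annotated 3′UTR need not hold the listed PASs. In *Usp50* it was 31 nt against an exon3 span of 374 nt, and in *Ube2w* 982 nt against 1131 nt.

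**Figure D4:**
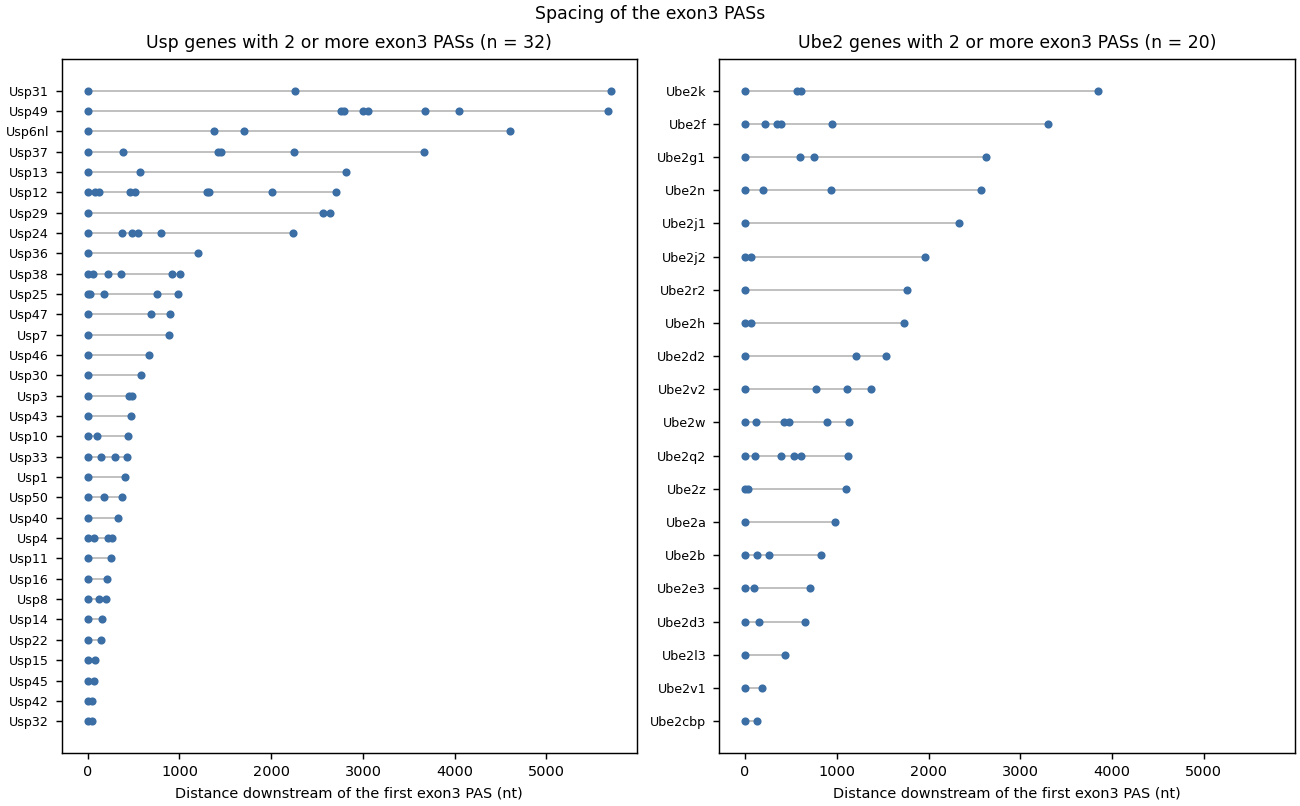
Position of each exon3 PAS downstream of the first one (x axis, nt), 1 row a gene, for the 32 Usp genes (left) and 20 Ube2 genes (right) with 2 or more. *Usp31* and *Usp49* extend beyond 5000 nt, and *Ube2k* is the widest of the Ube2 genes at 3845 nt.

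Among the Usp genes the widest exon3 spans were those of *Usp31*, 5705 nt, and *Usp49*, 5668 nt, the latter a peptidase of ubiquitinated histone H2B. *Usp31* reached its span with 3 PASs, and 3446 nt separated the last pair. *Usp49* had 8, and its widest gap, 2758 nt, came after the first. *Usp6nl*, which encodes a GTPase-activating protein of Rab GTPases and not a peptidase, followed with 4600 nt. *Usp37* had 6 PASs over 3668 nt, *Usp13* 3 over 2818 nt, *Usp29* 3 over 2645 nt and *Usp24* 6 over 2238 nt. *Usp12* had the most exon3 PASs of all members, 9, over 2706 nt. *Usp46*, which forms a complex with the same activators as Usp12 and acts on AMPA receptors, had 2, at 74396732 and 74396062 on chromosome 5, 670 nt apart.

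Other Usp genes had closely spaced exon3 PASs. *Usp32* had 2 exon3 PASs 46 nt apart, *Usp42* 2 at 50 nt, *Usp45* 2 at 70 nt and *Usp15* 2 at 81 nt. *Usp14*, the deubiquitinase bound to the proteasome, had 2 at 151 nt and *Usp22*, of the SAGA complex, 2 at 148 nt. *Usp4* had 4 within 264 nt and *Usp33* 4 within 429 nt. *Usp7*, which acts on Mdm2 and p53, had 2 that lay 883 nt apart, and *Usp30*, the peptidase of the mitochondrial outer membrane, 2 at 579 nt. The remaining Usp genes with at least 2 exon3 PASs had spans from 194 nt in *Usp8* to 1203 nt in *Usp36*. Between them lay *Usp1*, *Usp3*, *Usp10*, *Usp11*, *Usp16*, *Usp25*, *Usp38*, *Usp40*, *Usp43*, *Usp47* and *Usp50*.

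A single exon3 PAS and nothing else was listed for *Usp2*, *Usp5*, *Usp18*, *Usp19*, *Usp20*, *Usp39* and *Usp48*. *Usp5* recycles free ubiquitin chains, and *Usp18* removes the ubiquitin-like ISG15. *Usp28* had 1 exon3 PAS at 48850610 on chromosome 9 and an exon3ext site 53 nt beyond it, the only exon3ext site of the Usp genes.

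The E2s that prime many substrates differed among themselves. *Ube2d3* had 3 exon3 PASs over 655 nt, *Ube2d2* 3 over 1538 nt and *Ube2d1* 1, and each had an exon3ext site, 1018 nt, 2507 nt and 625 nt beyond the last exon3 PAS. *Ube2e3* had 3 exon3 PASs over 709 nt and an exon3ext site 7496 nt further on, the farthest of the members, while *Ube2e1* and *Ube2e2* had a single PAS. *Ube2w* had 6 within 1131 nt.

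*Ube2n*, which pairs with either *Ube2v1* or *Ube2v2* as proteins, and *Ube2v2* itself each had 4 exon3 PASs and no intronic one. *Ube2n* spanned 2568 nt, with PASs at 95005729, 95005927, 95006670 and 95008297 on chromosome 10, and *Ube2v2* spanned 1375 nt. *Ube2v1* and *Ube2v2* are paralogues, and their site sets thus differed by kind.

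A list of 6 E2s that build chains for the proteasome was kept apart from the E2s of the anaphase-promoting complex. It was chosen with earlier results of these data known, and its spans enter the 1253 nt median of the Ube2 genes. Wide spans were not particular to it: *Ube2f* had 3305 nt and *Ube2n* 2568 nt. *Ube2k* had 4 PASs over 3845 nt, of which 3235 nt lay between the last pair. *Ube2g1* had 4 over 2622 nt, and *Ube2j1* and *Ube2j2*, of the endoplasmic reticulum, had 2 over 2334 nt and 3 over 1959 nt. *Ube2r2* had 2 at 1764 nt, while *Ube2g2* had 1. Both E2s of the anaphase-promoting complex, *Ube2c* and *Ube2s*, had 1 exon3 PAS.

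Among the E2s of other modifiers, *Ube2f*, for NEDD8, had 6 exon3 PASs over 3305 nt and an exon3ext site, and *Ube2m*, the other NEDD8 E2, had 1 PAS in all. *Ube2z*, which takes ubiquitin from the E1 Uba6, had 3 over 1095 nt. *Ube2a* and *Ube2b*, paralogues in histone and DNA damage ubiquitination, had 2 over 979 nt and 4 over 827 nt, and *Ube2h* had 3 over 1730 nt. *Ube2l3* had 2 at 435 nt and *Ube2cbp*, an E2-binding protein rather than an E2, 2 at 130 nt. A single PAS was listed for *Ube2c*, *Ube2o*, *Ube2q1*, *Ube2ql1* and *Ube2t*.

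*Ube2q2* on chromosome 9 had no intronic PAS, but 10 UA sites, 6 exon3 PASs over 1125 nt and 1 exon3ext site. The UA sites lay within 2116 nt, from 54994504 to 54996620, and were named with the minus strand, while the gene is on the plus strand. All 27 UA sites of the members were antisense to their gene by name. They were listed for 14 members (17.3%, against 13.8% of the other genes), with 1 the median number in these genes. *Ube2s* had 3 and *Ube2g1* 1. *Usp24* and *Usp53* had 2 each and *Usp1*, *Usp3*, *Usp10*, *Usp15*, *Usp25*, *Usp35*, *Usp38*, *Usp49* and *Usp54* had 1. In 13 of the 14 genes the UA sites came before all others in the direction of the gene. In *Usp49* the UA site, at 47807893, lay downstream of both intronic sites and 10127 nt upstream of the first exon3 PAS.

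Several members end against a neighbour on the opposite strand. Within 1000 nt of the last PAS of the gene, 11 of the 81 members (13.6%) had a PAS of another gene on the opposite strand, against 11.8% of the other genes, leaving out UA sites. Of these, 9 were Usp genes (18.8% of 48) and 2 were Ube2 genes (6.06% of 33). The last PAS of *Usp49*, at 47823688, was 1 nt from a PAS of *Tomm6*. That of *Usp34* was 5 nt from one of *Ahsa2*, that of *Usp37* 12 nt from one of *Vil1* and that of *Ube2z* 16 nt from one of *Snf8*. *Usp14* ended 45 nt from a PAS of *Thoc1*. *Usp8* and *Usp50* converge on chromosome 2, with their last PASs 1750 nt apart.

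Only 2 members had PASs listed under more than 1 gene. In *Ube2h*, the sites at 30163024 and 30162965 on chromosome 6 were also listed under *Gm2058*. All 4 PASs of *Ube2j2* were also listed under *Gm5801*, where the 3 that are exon3 sites of *Ube2j2* were labelled exon3ext. Such entries made up 1.75% of those of the members and 1.16% of those of the other genes. How reads at these sites were assigned to the genes was not examined.

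Other genes of the pathway were read beside all listed genes outside the families, of which 33.5% had an intronic PAS and, among those with an exon3 PAS, 49.4% had 2 or more. Of 8 genes for E1 subunits, 5 had 2 or more exon3 PASs and 1, *Uba3*, an intronic one. *Uba6* had the most exon3 PASs of these, 7 over 1670 nt. Of 21 other deubiquitinases, 12 of the 20 with an exon3 PAS had 2 or more, and 4 of the 21 (19.0%) had an intronic one, among them *Atxn3* with 3 and *Uchl5* with 2. *Uchl1*, the abundant neuronal hydrolase, had 1 PAS. Of 16 E3 ligases known in neurons, 8 of the 15 with an exon3 PAS had 2 or more, and 2 of the 16 (12.5%), *Nedd4* and *Mib1*, had an intronic one, with 3 each. *Ube3a* had 4 PASs, of which 1 was labelled exon3.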

How the data were processed

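The authors mapped 3′READS+ reads with bowtie 2 (build mm9 per the labels), called a PAS from reads whose leading Ts did not align, and joined PASs within 24 nt. They deposited 1 table for all libraries, with a position and a region label for each PAS under each gene. Its 12 columns of counts have names that match no sample label, and since columns are assigned by name alone, they were not used. The comparisons of LTP and control slices were therefore not run.

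Members were found by symbol. The members, the lists of roles and the pathway lists were chosen with earlier results of these data known. Genes were named as the 5 Usp and 5 Ube2 genes with the most PASs, the 5 members with the widest exon3 span or most intronic sites, members with rare labels or shared sites, and those in the lists of roles. The remaining members were named too, except that some items are counted in the totals and not reported singly here.

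Site numbers, distances and shares were computed with Python 3.11.15, pandas 2.3.3, numpy 2.4.6 and scipy 1.17.1, and figures drawn with matplotlib 3.10.9. The counting was tested on simulated data. Distances run in the direction of the gene. The meaning of a region label was inferred from its name. Gene length, exon number and 3′UTR length came from GENCODE M21 (GRCm38), by symbol. Gene length was that of the whole annotated gene. Exon number and 3′UTR length were those of its protein-coding transcript ending furthest downstream. All 81 members matched, 1 (*Ube2d2*) through a RefSeq synonym, and so did 16337 of the 16546 other genes. Of these other genes, 15851 had a protein-coding transcript and were used for the values from the annotation. No coordinate was converted between builds. The 81 stand for 81 of the 93 protein-coding symbols of the rule in that annotation, and the other 12 were not analysed here.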

Additional observations from a re-analysis of the deposited data

How the results depend on the processing

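No paired analysis was possible because no count column could be matched to a sample by name. For the same reason the alternatives set for the comparisons at 1 hr and 3 hr were not run: the animal as a block, DESeq2, no filter on low counts, each replicate left out, and the 3 hr control replicate 3 left out. Of 25 alternatives for the site structure, 23 stayed within 1.5 times the count or within the 95% interval of the share or median. The interval (Wilson for the share, order statistics for medians) takes each value as independent. The 103 intronic sites, however, lie in 25 members, with 15 sites in *Ube2v1*. Settings that remove few genes or sites could not move a count by 1.5 times, so they were no test of the counts. Merging sites 500 nt or less apart counted as unchanged, yet lowered the members with 2 or more PASs from 63 (77.8%) to 52 (64.2%). In the other genes that share fell from 67.0% to 57.3%. The intronic share of the members, 34.0%, rose to 40.2% when sites 500 nt or less apart were merged and fell to 25.6% without *Usp53*, *Usp54*, *Usp8* and *Usp9x*. Both settings were chosen after seeing the data. Merging lowered the share in the Ube2 genes to 14.5% and raised it to 51.4% in the Usp and 39.1% in the other genes. *Ube2v1* alone decided the Ube2 share. The usage of a site cannot be read from these values, and whether the number of sites listed for a gene moves with its reads was not tested.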
